A study of Mus musculus with 14 samples.

Results

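The members described here are the genes of 3 enzyme superfamilies that oxidise or conjugate drugs, hormones and lipids: the cytochromes P450 (Cyp), the UDP-glucuronosyltransferases (Ugt) and the sulfotransferases (Sult). They were taken as all probes on the array whose annotated gene symbol starts with Cyp, Ugt or Sult followed by a digit, with Cyp51 left out. This gave 188 probes of 45248 with usable values, for 123 genes of 19068 named on the array, of which 86 were Cyp, 21 Ugt and 16 Sult genes. Expression was measured on Illumina bead arrays in mouse intestinal organoids, which are epithelial cultures grown from the intestine. The Apc-Prox1-deleted organoids carried villin-CreER with floxed Apc and floxed Prox1, and the Apc-deleted organoids carried villin-CreER with floxed Apc and no floxed Prox1. Every group therefore carried the deletion of Apc, the brake on Wnt signalling, and no group without it enters the comparisons. The strain was C57Bl and the mice were 2 to 3 months old. Tamoxifen was given for 2 days to start the Cre recombinase, which the villin promoter confines to intestinal epithelium. R-Spondin1, a Wnt agonist, was then withheld for 5 days so that organoids without Apc were selected, and RNA was taken 7 days after tamoxifen was added. The comparison asks what the loss of the transcription factor Prox1 adds in Apc-mutant epithelium.

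Cytochromes P450 are haem proteins of the endoplasmic reticulum or mitochondria that insert oxygen into lipids, steroids, retinoids and foreign compounds, using electrons passed on from NADPH. Glucuronosyltransferases then attach glucuronic acid, and sulfotransferases attach sulfate from the activated donor PAPS, which makes the products soluble for export by ABC transporters. In the intestine these enzymes form a first barrier to what is eaten, and they are known mainly from mature absorptive cells of the villus.

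Promoter windows of 6 members are shown first. They were lower over both series, lay above the floor and kept that call when any single library was left out. They are shown because the results below turn on these genes. Each window runs from 250 bases before the start of the gene to 50 bases after it, 5′ to 3′ along the gene, and comes from RefSeq on mouse build GRCm38.p6. The windows are Cyp4b1 at chr4:115647672-115647971, Cyp4f13 at chr17:32947312-32947611, Cyp4v3 at chr8:45333114-45333413 and Sult1c2 at chr17:53845909-53846208, all on the minus strand, and Ugt1a1 at chr1:88211709-88212008 and Ugt2b35 at chr5:87000610-87000909 on the plus strand. Capitals mark exact matches, on either strand, to the letters searched.
Cyp4b1: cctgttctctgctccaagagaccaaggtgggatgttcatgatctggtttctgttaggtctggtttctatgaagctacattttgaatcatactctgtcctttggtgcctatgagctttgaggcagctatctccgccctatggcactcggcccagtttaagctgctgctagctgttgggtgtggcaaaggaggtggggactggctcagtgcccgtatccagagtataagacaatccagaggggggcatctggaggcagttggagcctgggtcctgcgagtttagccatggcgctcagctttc
Cyp4f13: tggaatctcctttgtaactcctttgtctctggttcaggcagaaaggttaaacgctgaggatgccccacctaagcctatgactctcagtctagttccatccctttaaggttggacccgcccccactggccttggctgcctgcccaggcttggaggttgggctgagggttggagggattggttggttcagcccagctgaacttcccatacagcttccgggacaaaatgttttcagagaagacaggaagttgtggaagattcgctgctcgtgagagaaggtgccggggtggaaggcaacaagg
Cyp4v3: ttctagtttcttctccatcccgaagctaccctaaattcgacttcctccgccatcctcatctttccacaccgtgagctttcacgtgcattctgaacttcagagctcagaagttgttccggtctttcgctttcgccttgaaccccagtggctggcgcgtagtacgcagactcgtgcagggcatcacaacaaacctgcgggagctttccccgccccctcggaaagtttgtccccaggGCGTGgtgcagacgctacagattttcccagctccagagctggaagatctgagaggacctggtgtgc
Sult1c2: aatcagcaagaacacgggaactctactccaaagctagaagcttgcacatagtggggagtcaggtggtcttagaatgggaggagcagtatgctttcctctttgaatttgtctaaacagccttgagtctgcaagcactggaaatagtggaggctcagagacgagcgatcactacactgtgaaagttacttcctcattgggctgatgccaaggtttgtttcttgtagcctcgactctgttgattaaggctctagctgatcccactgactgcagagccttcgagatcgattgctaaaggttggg
Ugt1a1: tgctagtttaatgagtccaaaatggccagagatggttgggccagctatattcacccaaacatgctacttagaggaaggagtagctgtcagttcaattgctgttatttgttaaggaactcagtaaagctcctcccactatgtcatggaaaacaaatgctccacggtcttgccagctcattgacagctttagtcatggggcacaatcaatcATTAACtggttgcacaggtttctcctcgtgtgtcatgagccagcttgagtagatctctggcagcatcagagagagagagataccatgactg
Ugt2b35: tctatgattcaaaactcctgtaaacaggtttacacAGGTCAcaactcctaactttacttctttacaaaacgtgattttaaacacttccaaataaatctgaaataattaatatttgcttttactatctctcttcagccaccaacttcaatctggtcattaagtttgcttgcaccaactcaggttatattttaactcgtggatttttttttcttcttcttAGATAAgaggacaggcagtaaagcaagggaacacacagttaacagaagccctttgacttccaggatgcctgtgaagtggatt

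The letters searched were AGGTCA, the core bound by many nuclear receptors, GCGTG, bound by the aryl hydrocarbon receptor, and GTTAAT, bound by HNF1. Also searched were AGATAA for the factors of the Gata family, TTTATG for those of the Cdx family, and the promoter box TATAAA, and none of the matches overlapped in the windows printed. Cyp4v3 held GCGTG at position -16 from the start, Ugt1a1 held the reverse complement of GTTAAT at -41, and Ugt2b35 held AGGTCA at -215 and AGATAA at -32. The windows of Cyp4b1, Cyp4f13 and Sult1c2 held none of these letters. Windows were found for 94 of the 123 members (105 windows). TATAAA occurred in 33.3% of the members' windows and in 13.6% of all 32851 windows, AGGTCA in 27.6% and 16.3%, and GTTAAT in 16.2% and 7.1%. GCGTG occurred in 21 of the 105 windows and in 32.4% of all windows, AGATAA also in 21 of the 105 and in 11.2%, and TTTATG in 10.5% and 11.9%. A match is a description of letters and not a binding site.

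Of the 14 deposited entries, 2 pairs held the same array under different labels, so the 4 entries concerned entered no main comparison. An array was labelled both Apc-Prox1-deleted replicate 4 of series 1 and Apc-deleted replicate 2 of series 2. Another was labelled both Apc-Prox1-deleted replicate 3 of series 1 and Apc-Prox1-deleted replicate 2 of series 2. The alternative with all 14 entries as labelled therefore puts 1 array in both genotypes. Of the 10 libraries used, series 1 gave 2 Apc-Prox1-deleted and 4 Apc-deleted ones and series 2 gave 2 and 2. Levels are log2 values recovered from the deposited ratios, and the median of the arrays was 6.79. Prox1 itself averaged 8.07 in Apc-Prox1-deleted and 9.81 in Apc-deleted organoids of series 1, and 9.09 and 10.48 in series 2, a fall of 1.59 on the log2 scale over both series (limma adjusted p = 0.000185). Of 8 epithelial genes measured, Cdh1, Vil1, Krt8, Krt19, Cdx1 and Cdx2 had group means of at least 8.74. Over both series Krt8 and Krt19 rose by 0.50 and 0.73 (limma adjusted p = 0.00716 and 7.24e-05), and Cdx1 fell by 0.40 (0.0315). Krt20 averaged 7.18 to 8.02, and the Epcam probe was near the floor. Markers of fibroblasts, immune and endothelial cells were near or below that level, and 0 of the 9 that were tested passed in any comparison. The groups of series 1 also differed in sex-linked genes: Xist averaged 6.68 in Apc-Prox1-deleted and 9.84 in Apc-deleted organoids, and Eif2s3y 8.27 and 6.72, so genotype and whatever sets these sex-linked levels cannot be told apart there. In series 2 Xist averaged 6.67 in Apc-Prox1-deleted and 6.65 in Apc-deleted organoids, and Eif2s3y 6.72 and 7.03 (-0.30, limma adjusted p = 0.0672). The Eif2s3y difference between the series was 1.85 (limma adjusted p = 6.65e-08). Over both series Xist differed by -1.80 and Eif2s3y by 0.75 (limma adjusted p = 0.00747 and 0.0423). The same limit therefore holds for the values over both series, which include the libraries of series 1. The labels do not say whether replicates came from separate mice or cultures, so p-values measure only the spread between these libraries.

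Most members were dim. A gene was read through its brightest probe, and a probe was tested when it exceeded the median of the array on at least 3 of the 10 libraries. By this rule 64 of the 123 genes were tested, namely 45 Cyp, 11 Ugt and 8 Sult genes, and the other 59 did not reach the level. A further 38 of the 64 were near the floor, with every group mean less than 0.5 log2 above the median of the arrays, which leaves 26 genes clearly above it (17 Cyp, 5 Ugt and 4 Sult). Near the floor a real change is compressed, so small differences there understate the change of the RNA. As the rule needs 3 libraries, only the 4 Apc-deleted libraries of series 1 could carry a gene over the level alone. The rule thus favours genes that are lower in Apc-Prox1-deleted organoids of series 1. Such a gene need not pass, as with Cyp2c23 (-0.06 in series 1, limma adjusted p = 0.474). Counts over tested genes are not counts over all members.

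**Figure D1:**
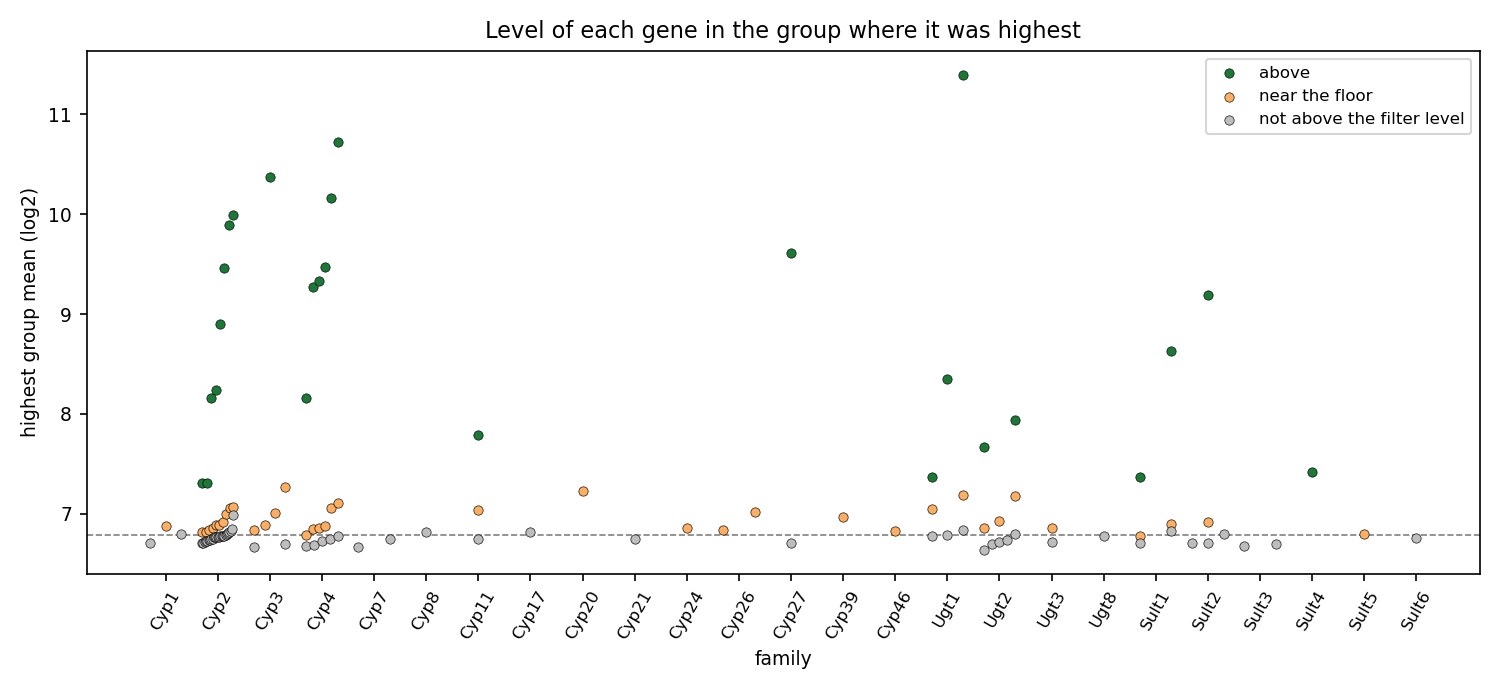
Highest of the 4 group means (log2) of each of the 123 genes, by family, 1 point per gene read through its brightest probe; green points are above the floor, orange points near it and grey points failed the filter level, and the dashed line is the median of the arrays at 6.79. Brightness differs between probes, so the heights do not rank RNA amounts; 97 of the 123 points lie near the floor or under the filter level.

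Among the 59 genes not above the level were Cyp7a1, Cyp7b1 and Cyp8b1 of bile acid synthesis, Cyp17a1, Cyp21a1 and Cyp11b1 of steroid synthesis, and Cyp27b1, which activates vitamin D. Cyp1a1 and Cyp1b1, the oxidases that the aryl hydrocarbon receptor switches on, were not above it either, nor was Sult1e1, which sulfates oestrogens. In the Cyp2c subfamily 5 of 13 genes were tested, in Cyp2d 5 of 8, in Cyp2b 3 of 5 and in Cyp2j 1 of 7. In Cyp3a 5 of 7 genes were tested, in Cyp4f 7 of 9, in Ugt1a 5 of 8, in Ugt2b 3 of 7 and in Ugt2a 2 of 3. Among members near the floor were Cyp24a1, which breaks down active vitamin D, Cyp26a1 and Cyp26b1, which clear retinoic acid, Cyp46a1, which hydroxylates cholesterol in brain, and Cyp39a1 of bile acid synthesis. Cyp1a2, Cyp2j9, Cyp2u1, Cyp4a31, Cyp11b2, Cyp20a1, Sult1a1, Sult1b1, Sult2a1, Sult5a1, Ugt2a3 and Ugt3a1 were near it too. None of these 17 passed in any comparison, although Cyp39a1 did under 5 alternatives in series 1 (-0.19 with normalization within each series, adjusted p = 0.0461, against -0.15 and 0.119) and under 4 over both series (-0.14 without Apc-deleted replicate 2 of series 1, adjusted p = 0.035, against -0.12 and 0.0547).

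In series 1, 14 of the 64 tested genes passed an adjusted p of 0.05, 1 higher and 13 lower in Apc-Prox1-deleted organoids, against 8.32% of all 26342 tested probes and 10.7% of 13418 genes read the same way. In series 2, 7 passed, 2 higher and 5 lower, against 4.12% of probes and 5.18% of genes. Over both series 14 passed, 3 higher and 11 lower, against 12.7% of probes and 15.8% of genes. The 14 genes are 21.9% of those tested in series 1 and again over both series, and the 7 are 10.9% in series 2. Lower calls took 5.96% of all genes and 4.32% of probes in series 1, 3.09% and 2.41% in series 2, and 8.73% and 6.79% over both. Higher calls took 4.72% of genes and 4.0% of probes in series 1, 2.09% and 1.71% in series 2, and 7.11% and 5.94% over both. The median difference of the tested members was -0.04 log2 in series 1, -0.01 in series 2 and -0.02 over both series, beside 0.00 for all genes in each. A test of the genotype effect between the series passed for 1 member, Cyp11a1, against 0.562% of probes and 0.619% of genes.

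The Cyp4 family, fatty acid hydroxylases that act at or near the end of the chain, supplied 6 of the 13 lower calls of series 1. It holds 17 genes on the array, of which 12 were tested, 6 of them near the floor. In series 1 it had 6 lower and 0 higher calls. In series 2 it had 2 lower and 0 higher, and over both series 5 lower and 0 higher. Among all genes read the same way, lower calls took 5.96% in series 1, 3.09% in series 2 and 8.73% over both. The 2 calls of series 2 may not be independent, as described below. Cyp4b1, which oxidises medium-chain fatty acids and in rodents activates toxic plant furans, had levels of 7.43 and 7.46 in Apc-Prox1-deleted organoids of series 1, against 8.32, 8.09, 8.66 and 8.51 in Apc-deleted organoids. In series 2 its levels were 7.78 and 8.40 in Apc-Prox1-deleted organoids and 9.53 and 9.13 in Apc-deleted organoids. In neither series did the 2 genotypes overlap, and the Apc-Prox1-deleted organoids were the lower ones. Of the 64 tested members, 27 did not overlap in series 1 and 30 in series 2. With groups this small a lack of overlap alone says little, here and for the genes below. The share over all genes was not counted. Cyp4b1 fell by 0.95 on the log2 scale in series 1 (SE 0.18, limma adjusted p = 0.00282), by 1.24 in series 2 (SE 0.21, adjusted p = 0.00215) and by 1.07 over both, which is 2.10-fold (SE 0.14, adjusted p = 0.000101).

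A pseudogene close to it, Cyp4b1-ps2, was also lower in both series. In RefSeq's gene order 1 other coding gene lies between it and Cyp4b1. The array's probes for the pair may share transcripts, so the 2 may not be independent. All counts given here still take them as 2 genes, and they are the 2 lower Cyp4 calls of series 2. Levels of Cyp4b1-ps2 were 7.60 and 7.58 in Apc-Prox1-deleted organoids of series 1, against 8.48, 8.19, 9.09 and 8.98 in Apc-deleted organoids. In series 2 they were 7.72 and 8.16 in Apc-Prox1-deleted organoids and 9.55 and 8.99 in Apc-deleted organoids, again with no overlap. It fell by 1.10 in series 1 (adjusted p = 0.004), by 1.33 in series 2 (adjusted p = 0.00562) and by 1.19 over both (SE 0.17, adjusted p = 0.000191). With all 14 entries as labelled, Cyp4b1 missed the threshold in series 1, in series 2 and over both (adjusted p = 0.599, 0.217 and 0.135), and on the deposited ratios likewise (adjusted p = 0.351, 0.626 and 0.176). The within-series calls of Cyp4b1 were lost without Apc-Prox1-deleted replicate 1 of the series concerned (adjusted p = 0.0539 in series 1 and 0.0579 in series 2). Those of Cyp4b1-ps2 were lost without Apc-Prox1-deleted replicate 1 or 2 of series 1 (0.0559 and 0.0672), and in series 2 without Apc-Prox1-deleted replicate 1 or Apc-deleted replicate 1 (0.105 and 0.0982), with all entries (0.244 in series 1 and 0.128 in series 2) and, in series 2, on the ratios (0.0605).

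The Cyp4f genes hydroxylate leukotriene B4 and long-chain fatty acids. Of the 9 on the array, 8 lie along 1 chromosome in the order Cyp4f39, Cyp4f17, Cyp4f16, Cyp4f40, Cyp4f15, Cyp4f14, Cyp4f13 and Cyp4f41-ps, with 1 other coding gene between Cyp4f16 and Cyp4f40 and 4 between Cyp4f15 and Cyp4f14, and Cyp4f18 lies elsewhere. Cyp4f13 was measured at 9.30 and 9.25 in Apc-Prox1-deleted organoids of series 1, against 10.29, 9.92, 10.32 and 10.10 in Apc-deleted organoids. In series 2 it was at 9.04 and 9.45 in Apc-Prox1-deleted organoids and 9.93 and 9.92 in Apc-deleted organoids. The groups did not overlap in either series. Cyp4f13 fell by 0.89 in series 1 (SE 0.17, adjusted p = 0.00245) and by 0.80 over both (SE 0.12, adjusted p = 0.000393), while its difference in series 2 was -0.68 (adjusted p = 0.0581). Its series 1 call was lost without Apc-Prox1-deleted replicate 2 (adjusted p = 0.0584), and its series 2 difference passed without Apc-Prox1-deleted replicate 3 or without Apc-deleted replicate 1 or 2 of series 1 (0.0379, 0.0464 and 0.0315).

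Its direct neighbour Cyp4f14, a leukotriene B4 hydroxylase, moved in series 1. Its levels there were 9.31 and 8.72 in Apc-Prox1-deleted organoids, against 10.92, 10.48, 10.84 and 10.66 in Apc-deleted organoids. In series 2 the libraries of both genotypes were spread over the same range, with 8.69 and 10.38 in Apc-Prox1-deleted and 8.79 and 9.82 in Apc-deleted organoids. Cyp4f14 fell by 1.71 in series 1, or 3.27-fold (SE 0.34, adjusted p = 0.00396), and its difference in series 2 was 0.23 (SE 0.40, adjusted p = 0.847). The series 1 call was lost without Apc-Prox1-deleted replicate 2 (adjusted p = 0.122) and with a robust variance prior (0.0787). The difference between the series, -1.94 (SE 0.53), had an adjusted p of 0.164, and it passed without Apc-Prox1-deleted replicate 1 of series 2 (adjusted p = 0.00614). Over both series the difference of -0.88 had an adjusted p of 0.12, and it passed without Apc-Prox1-deleted replicate 3 of series 2 (0.00122) or Apc-deleted replicate 1 of series 2 (0.0163).

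Cyp4v3 corresponds to human CYP4V2, the fatty acid hydroxylase mutated in Bietti crystalline dystrophy of the retina. Its levels were 8.14 and 7.99 in Apc-Prox1-deleted organoids of series 1, against 9.43, 9.60, 9.48 and 9.39 in Apc-deleted organoids, and in series 2 they were 7.99 and 8.50 in Apc-Prox1-deleted organoids and 8.70 and 8.70 in Apc-deleted organoids. All Apc-Prox1-deleted libraries were below all Apc-deleted libraries, whichever series they came from. Cyp4v3 fell by 1.41 in series 1 (2.65-fold, SE 0.15, adjusted p = 1.54e-05) and 2.00-fold over both (SE 0.16 on the log2 scale, adjusted p = 0.000568), with -0.45 in series 2 (SE 0.18, adjusted p = 0.189). The series 1 and both-series calls passed under every alternative run. The series 2 difference passed without Apc-Prox1-deleted replicate 3 of that series (adjusted p = 0.0479). Its series 1 minus series 2 difference (-0.96, adjusted p = 0.0896) passed with normalization within each series (-1.08, adjusted p = 0.0385) and without Apc-Prox1-deleted replicate 1 of series 2 (0.0247). Cyp4f15, near the floor, averaged 6.84 in Apc-Prox1-deleted and 7.11 in Apc-deleted organoids of series 1 and fell by 0.27 there (SE 0.08, adjusted p = 0.0396) and by 0.20 over both (adjusted p = 0.0413). Its series 1 call was lost without either Apc-Prox1-deleted library of series 1 or without Apc-deleted replicate 1 or 2 of series 1 (adjusted p between 0.0689 and 0.42), and its call over both series was kept in only 2 of 10 such fits (adjusted p up to 0.218). Cyp4f16, above the floor, averaged 7.84 in Apc-Prox1-deleted and 8.11 in Apc-deleted organoids of series 1, a difference of -0.28 that did not pass (adjusted p = 0.24).

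**Figure D2:**
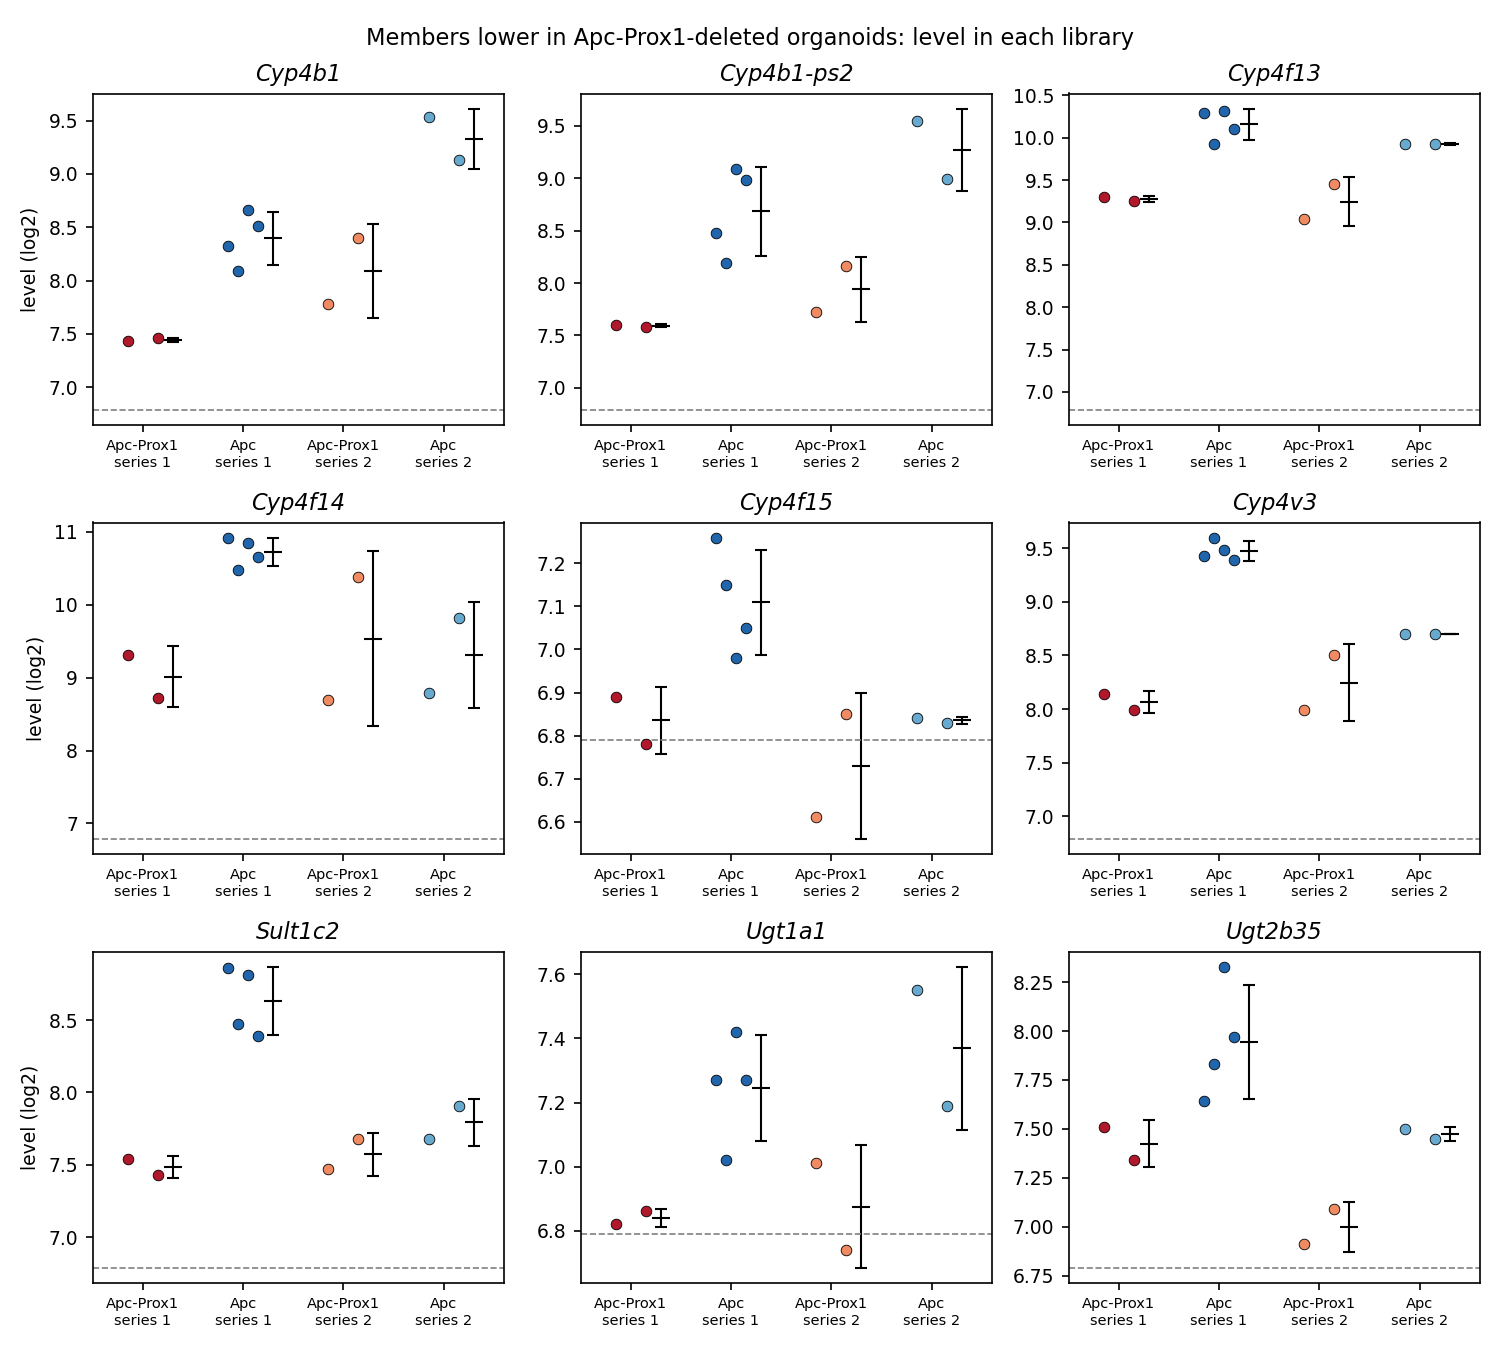
Log2 level in each of the 10 libraries (points) for 9 members, with the group mean and SD as the bar beside the points and the median of the arrays, 6.79, as a dashed line; the vertical axes differ between panels. Cyp4b1, Cyp4b1-ps2, Cyp4f13, Cyp4v3, Ugt1a1 and Ugt2b35 are lower in Apc-Prox1-deleted organoids in both series without overlap, while for Cyp4f14, Cyp4f15 and Sult1c2 the groups of series 2 overlap or touch. Of all 64 tested members, 27 did not overlap in series 1 and 30 in series 2. The share over all genes was not counted, and with groups this small a lack of overlap alone says little.

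The Cyp2 family, the main drug oxidases, was the largest on the array with 43 genes, of which 18 were tested. It had 3 lower and 0 higher calls in series 1, none in series 2, and 3 lower and 0 higher over both. All 3 belong to the Cyp2c and Cyp2d subfamilies. They are 16.7% of the 18 tested, against 10.7% of all genes in series 1 and 15.8% over both. Cyp2d26 had levels of 7.49 and 7.21 in Apc-Prox1-deleted organoids of series 1, against 8.45, 7.72, 8.45 and 8.34 in Apc-deleted organoids, and in series 2 it had 7.54 and 8.36 in Apc-Prox1-deleted and 7.83 and 8.61 in Apc-deleted organoids. The groups were apart in series 1 and overlapped in series 2. It fell by 0.89 in series 1 (SE 0.24, adjusted p = 0.0272) and by 0.62 over both (SE 0.20, adjusted p = 0.0466), with -0.27 in series 2 (adjusted p = 0.7). All 3 of its probes were lower in series 1 and passed there (-0.89, -1.03 and -0.96). The series 1 call of the brightest probe was lost without either Apc-Prox1-deleted library, without Apc-deleted replicate 1, 3 or 4 of series 1, with all entries or with a robust prior (adjusted p between 0.0533 and 0.316). The call over both series held in only 3 of 10 fits that left out 1 library (adjusted p up to 0.227).

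Cyp2d10 averaged 6.96 ± 0.03 in Apc-Prox1-deleted organoids of series 1 (SD, n = 2) and 7.31 ± 0.11 in Apc-deleted organoids (SD, n = 4), and fell by 0.36 there (limma adjusted p = 0.0128) and by 0.24 over both (adjusted p = 0.0384). Without Apc-Prox1-deleted replicate 1 or 2 of series 1 the first call was lost (adjusted p = 0.109 and 0.181), as it was with all entries (0.0529), and the second held in 3 of 10 fits without 1 library. A dimmer probe of Cyp2c67 did not exceed the filter level and averaged 6.7 in Apc-Prox1-deleted and 6.72 in Apc-deleted organoids of series 1. The brightest probe of Cyp2c67, near the floor, had levels of 6.81 and 6.78 in Apc-Prox1-deleted organoids of series 1, against 7.08, 7.02, 7.14 and 7.04 in Apc-deleted organoids. It fell by 0.27 in series 1 (SE 0.05, adjusted p = 0.00302) and by 0.22 over both (SE 0.04, adjusted p = 0.00168), and the second call passed under every alternative that gave a value. The first was lost without Apc-Prox1-deleted replicate 2 (adjusted p = 0.078).

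The Cyp2 genes that follow were above the floor and did not pass. Cyp2e1, which oxidises ethanol, had levels of 8.63 and 8.03 in Apc-Prox1-deleted organoids of series 1, against 8.68, 8.72, 10.65 and 9.80 in Apc-deleted organoids. Apc-deleted replicates 3 and 4 stood well above replicates 1 and 2, and the difference of -1.13 (SE 0.38) had an adjusted p of 0.08. It passed without Apc-deleted replicate 1 or 2 (adjusted p = 0.0289 and 0.0291). Over all probes the largest difference was 1.56 log2 between Apc-deleted replicates 1 and 2 and 1.17 between replicates 3 and 4. Across these pairs it was 2.16 to 2.73. The part of this split in the other series 1 differences was not tested. Cyp2c55, an intestinal arachidonic acid hydroxylase, showed the same split of the Apc-deleted libraries, with 10.13 and 9.65 in Apc-Prox1-deleted organoids, against 8.72, 8.39, 10.34 and 9.63 in Apc-deleted organoids, and a difference of 0.62 (adjusted p = 0.496). Cyp2b10, a target of the receptor Nr1i3, had 8.95 and 8.83 in Apc-Prox1-deleted organoids of series 1, against 8.09, 7.96, 8.84 and 8.89 in Apc-deleted organoids. In series 2 it had 8.43 and 9.37 in Apc-Prox1-deleted and 8.28 and 8.20 in Apc-deleted organoids. Its difference over both series was 0.54 (SE 0.20, adjusted p = 0.0865), and it passed without Apc-Prox1-deleted replicate 1 of series 2 or Apc-deleted replicate 3 or 4 of series 1 (adjusted p = 0.0472, 0.0476 and 0.0459). Cyp2c65, beside Cyp2c55 on the chromosome, differed by -0.41 in series 1 and 0.52 in series 2, and neither passed (adjusted p = 0.337 and 0.324). Without Apc-Prox1-deleted replicate 1 of series 2 its series 2 difference was 1.06 (adjusted p = 0.0268). Cyp2s1, an oxidase of epithelia outside the liver, and Cyp2d22 had differences over both series of -0.30 and -0.11 (adjusted p = 0.159 and 0.615).

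Cyp3a13, a member of the Cyp3a drug oxidases, was 1 of 3 members higher over both series. Its levels were 10.44 and 10.29 in Apc-Prox1-deleted organoids of series 1, against 9.75, 9.78, 10.16 and 10.13 in Apc-deleted organoids, and in series 2 they were 9.26 and 10.13 in Apc-Prox1-deleted organoids and 8.17 and 9.01 in Apc-deleted organoids. Every Apc-Prox1-deleted library lay above the Apc-deleted libraries of its series. Cyp3a13 rose by 1.10 in series 2 (SE 0.28, adjusted p = 0.0332) and by 0.71 over both (1.63-fold, SE 0.20, adjusted p = 0.0261), with 0.41 in series 1 (SE 0.24, adjusted p = 0.383). Its other 2 probes were also higher in series 2, by 1.03 and 0.38, without passing. The series 2 call was lost under 9 of 22 alternatives, among them normalization within each series (1.03, adjusted p = 0.0728), the fit without Apc-Prox1-deleted replicate 3 (0.66, adjusted p = 0.251) and that without Apc-deleted replicate 1 (0.68, adjusted p = 0.342). The call over both series was lost without the same libraries (0.0647 and 0.0759) and without Apc-Prox1-deleted replicate 1 of series 1 (0.0556). Cyp3a11, a main drug oxidase of mouse liver, was near the floor, at 6.93 in Apc-Prox1-deleted and 7.27 in Apc-deleted organoids of series 1, and fell by 0.34 (SE 0.10, adjusted p = 0.0331). That call was lost without Apc-Prox1-deleted replicate 1 or 2 or Apc-deleted replicate 1, 3 or 4 of series 1 (adjusted p between 0.0556 and 0.262), and the difference in series 2 was 0.15 (adjusted p = 0.552).

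Cyp27a1, a mitochondrial enzyme that starts the acidic route of bile acid synthesis by hydroxylating the cholesterol side chain, had levels of 8.84 and 8.86 in Apc-Prox1-deleted organoids of series 2, against 9.73 and 9.49 in Apc-deleted organoids. In series 1 it had 8.16 and 7.96 in Apc-Prox1-deleted organoids and 7.96, 7.85, 8.04 and 8.05 in Apc-deleted organoids. The groups were apart in series 2 and overlapped in series 1. It fell by 0.76 in series 2 (SE 0.15, adjusted p = 0.00739), with 0.09 in series 1 (adjusted p = 0.817), and the test of the difference between the series gave 0.85 (SE 0.20, adjusted p = 0.0801). All 3 of its probes were lower in series 2, and 2 passed. The call was lost without Apc-Prox1-deleted replicate 1 or Apc-deleted replicate 1 of series 2 (adjusted p = 0.0612 and 0.0933), with series 2 fitted alone (0.0514) and with all entries (0.46).

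Cyp11a1 cuts the side chain of cholesterol to start steroid synthesis. Its brightest probe stood at 7.86 and 7.72 in Apc-Prox1-deleted organoids of series 1, against 6.77, 6.70, 6.65 and 6.69 in Apc-deleted organoids. In series 2 the order was the other way round, with 6.86 and 6.73 in Apc-Prox1-deleted organoids and 7.46 and 7.89 in Apc-deleted organoids. The low groups were at the floor. Cyp11a1 rose by 1.09 in series 1 (SE 0.10, adjusted p = 2.81e-06) and fell by 0.88 in series 2 (SE 0.12, adjusted p = 0.000218), and the difference between the series was 1.97 (SE 0.15, adjusted p = 8.85e-07). Of its other 2 probes, 1 was near the floor, with differences of 0.06 and -0.05 in the 2 series (adjusted p = 0.597 and 0.754), and 1 was not above the filter level. On the deposited ratios the series 2 call was lost (-0.09, adjusted p = 0.0674). The pattern rests on 1 probe. The sex-linked Eif2s3y was ordered the same way, at 8.27 and 6.72 in series 1 and 6.72 and 7.03 in series 2. A link between the 2 genes was not tested.

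**Figure D3:**
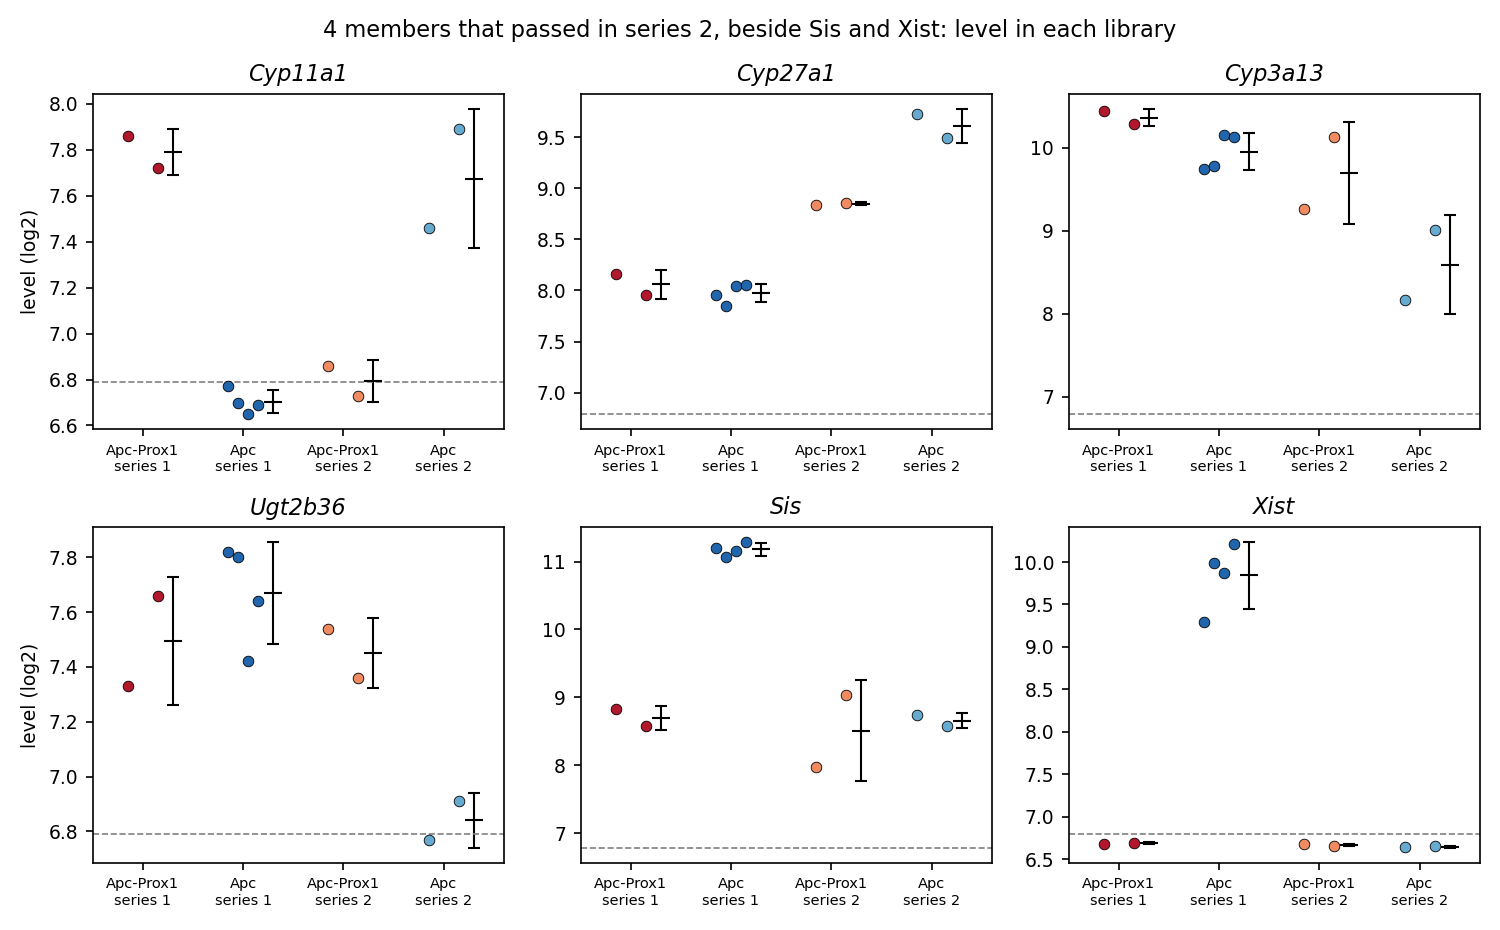
Log2 level in each library for Cyp11a1, Cyp27a1, Cyp3a13 and Ugt2b36, 4 of the members that passed in series 2, and for Sis (an absorptive enterocyte marker) and Xist (a sex-linked gene); points are libraries, bars are the group mean and SD, and the dashed line is the median of the arrays at 6.79. Cyp11a1 is high in Apc-Prox1-deleted organoids of series 1 and in Apc-deleted organoids of series 2, while Sis and Xist are high in Apc-deleted organoids of series 1.

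Among the glucuronosyltransferases, 2 of 11 tested genes were lower and 0 higher in series 1, 1 was lower and 1 higher in series 2, and 2 were lower and 1 higher over both. These are 18.2%, 18.2% and 27.3% of the 11, against 10.7%, 5.18% and 15.8% of all genes read the same way. Ugt1a1, the enzyme that conjugates bilirubin, had levels of 6.82 and 6.86 in Apc-Prox1-deleted organoids of series 1, against 7.27, 7.02, 7.42 and 7.27 in Apc-deleted organoids. In series 2 it had 7.01 and 6.74 in Apc-Prox1-deleted organoids and 7.55 and 7.19 in Apc-deleted organoids. The groups did not overlap in either series, and the low groups were at the floor. Ugt1a1 fell by 0.41 in series 1 (adjusted p = 0.031), by 0.50 in series 2 (adjusted p = 0.0382) and by 0.45 over both (SE 0.09, adjusted p = 0.00227). The last call passed under every alternative that gave a value. The call in series 1 was lost without Apc-Prox1-deleted replicate 1 or 2 or Apc-deleted replicate 1, 3 or 4 of series 1 (adjusted p up to 0.238), and that in series 2 under 13 of 21 alternatives, normalization within each series included (-0.34, adjusted p = 0.296).

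Ugt2b35, of the subfamily that conjugates steroids and bile acids, had levels of 7.51 and 7.34 in Apc-Prox1-deleted organoids of series 1, against 7.64, 7.83, 8.33 and 7.97 in Apc-deleted organoids. In series 2 it had 6.91 and 7.09 in Apc-Prox1-deleted organoids and 7.50 and 7.45 in Apc-deleted organoids. The groups were apart in both series. It fell by 0.52 in series 1 (adjusted p = 0.0335) and by 0.50 over both (SE 0.11, adjusted p = 0.00579), with -0.47 in series 2 (adjusted p = 0.14). The call over both series passed under every alternative. That in series 1 was lost without Apc-Prox1-deleted replicate 1 or 2 or Apc-deleted replicate 3 or 4 of series 1 (adjusted p between 0.0587 and 0.371), on the ratios (0.0661) and with series 1 fitted alone (0.0539), and the series 2 difference passed without Apc-deleted replicate 3 of series 1 (0.0478).

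Ugt2b36, its direct neighbour, averaged 7.45 ± 0.13 in Apc-Prox1-deleted and 6.84 ± 0.10 in Apc-deleted organoids of series 2 (SD, n = 2 each), and rose by 0.61 there (SE 0.14, limma adjusted p = 0.0218). In series 1 it averaged 7.50 in Apc-Prox1-deleted and 7.67 in Apc-deleted organoids, a difference of -0.17 (adjusted p = 0.507). The series 2 call was lost with normalization within each series (0.42, adjusted p = 0.284) and without Apc-Prox1-deleted replicate 1, Apc-deleted replicate 1 or Apc-deleted replicate 3 of series 2 (0.188, 0.174 and 0.0543). The difference between the series was -0.78 (adjusted p = 0.0879), and it passed without Apc-deleted replicate 3 of series 1 (-0.87, adjusted p = 0.0303).

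The phenol-conjugating Ugt1a enzymes Ugt1a10 and Ugt1a7c, both above the floor, did not pass. Ugt1a10 ran between 10.84 and 11.36 in Apc-Prox1-deleted and between 10.54 and 11.46 in Apc-deleted organoids of series 1, and its difference over both series was 0.04 (SE 0.17, adjusted p = 0.936). Ugt1a7c averaged 8.02 in Apc-Prox1-deleted and 7.63 in Apc-deleted organoids of series 1, with a difference over both series of 0.26 (adjusted p = 0.157). Ugt1a6b, near the floor, rose by 0.19 over both series (SE 0.06, adjusted p = 0.0484), a call that was kept in 1 of 10 fits without 1 library, the fit without Apc-deleted replicate 1 of series 2 (adjusted p up to 0.234 in the others). In series 1 its difference of 0.24 (adjusted p = 0.0742) passed with normalization within each series (0.30, adjusted p = 0.0135). Of the near-identical Ugt1a6a, 1 dimmer probe rose by 0.18 over both series (adjusted p = 0.0177), while its brightest probe differed by 0.14 (adjusted p = 0.0718).

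Of the 8 sulfotransferases tested, 1 was lower in series 1, none passed in series 2, and over both series 1 was lower and 1 higher. These are 12.5%, 0.0% and 25.0% of the 8, against 10.7%, 5.18% and 15.8% of all genes read the same way. Sult1c2, of the phenol sulfotransferase family, had levels of 7.54 and 7.43 in Apc-Prox1-deleted organoids of series 1, against 8.86, 8.47, 8.81 and 8.39 in Apc-deleted organoids. In series 2 it had 7.47 and 7.68 in Apc-Prox1-deleted organoids and 7.68 and 7.91 in Apc-deleted organoids. The groups were far apart in series 1 and touched in series 2. Sult1c2 fell by 1.15 in series 1 (2.21-fold, SE 0.14, adjusted p = 7.43e-05) and by 0.75 over both (SE 0.16, adjusted p = 0.00413), and both calls passed under every alternative run. Its difference in series 2 was -0.22 (SE 0.17, adjusted p = 0.579). Its series 1 minus series 2 difference (-0.93, adjusted p = 0.0801) passed with normalization within each series (-1.09, adjusted p = 0.0335).

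Sult4a1, a brain sulfotransferase with no settled substrate, averaged 7.18 in Apc-Prox1-deleted and 6.98 in Apc-deleted organoids of series 1, and 7.42 and 7.05 in series 2. It rose by 0.27 over both series (SE 0.08, adjusted p = 0.0261), a call lost without Apc-Prox1-deleted replicate 1 of series 1, Apc-deleted replicate 3 of series 1, Apc-Prox1-deleted replicate 1 of series 2 or Apc-deleted replicate 3 of series 2 (adjusted p between 0.0525 and 0.103). Its series 2 difference of 0.36 passed without Apc-Prox1-deleted replicate 3 of series 2 (adjusted p = 0.0361). Sult2b1, which sulfates cholesterol, differed by 0.00 in series 1 and by -0.48 in series 2 (adjusted p = 0.997 and 0.284). Sult1d1, a catecholamine sulfotransferase, differed by -0.30 in series 1 (adjusted p = 0.0773), and it passed there with normalization within each series (-0.37, adjusted p = 0.0272) and without Apc-deleted replicate 2 of series 1 or Apc-Prox1-deleted replicate 3 of series 2 (0.0384 and 0.0469).

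**Figure D4:**
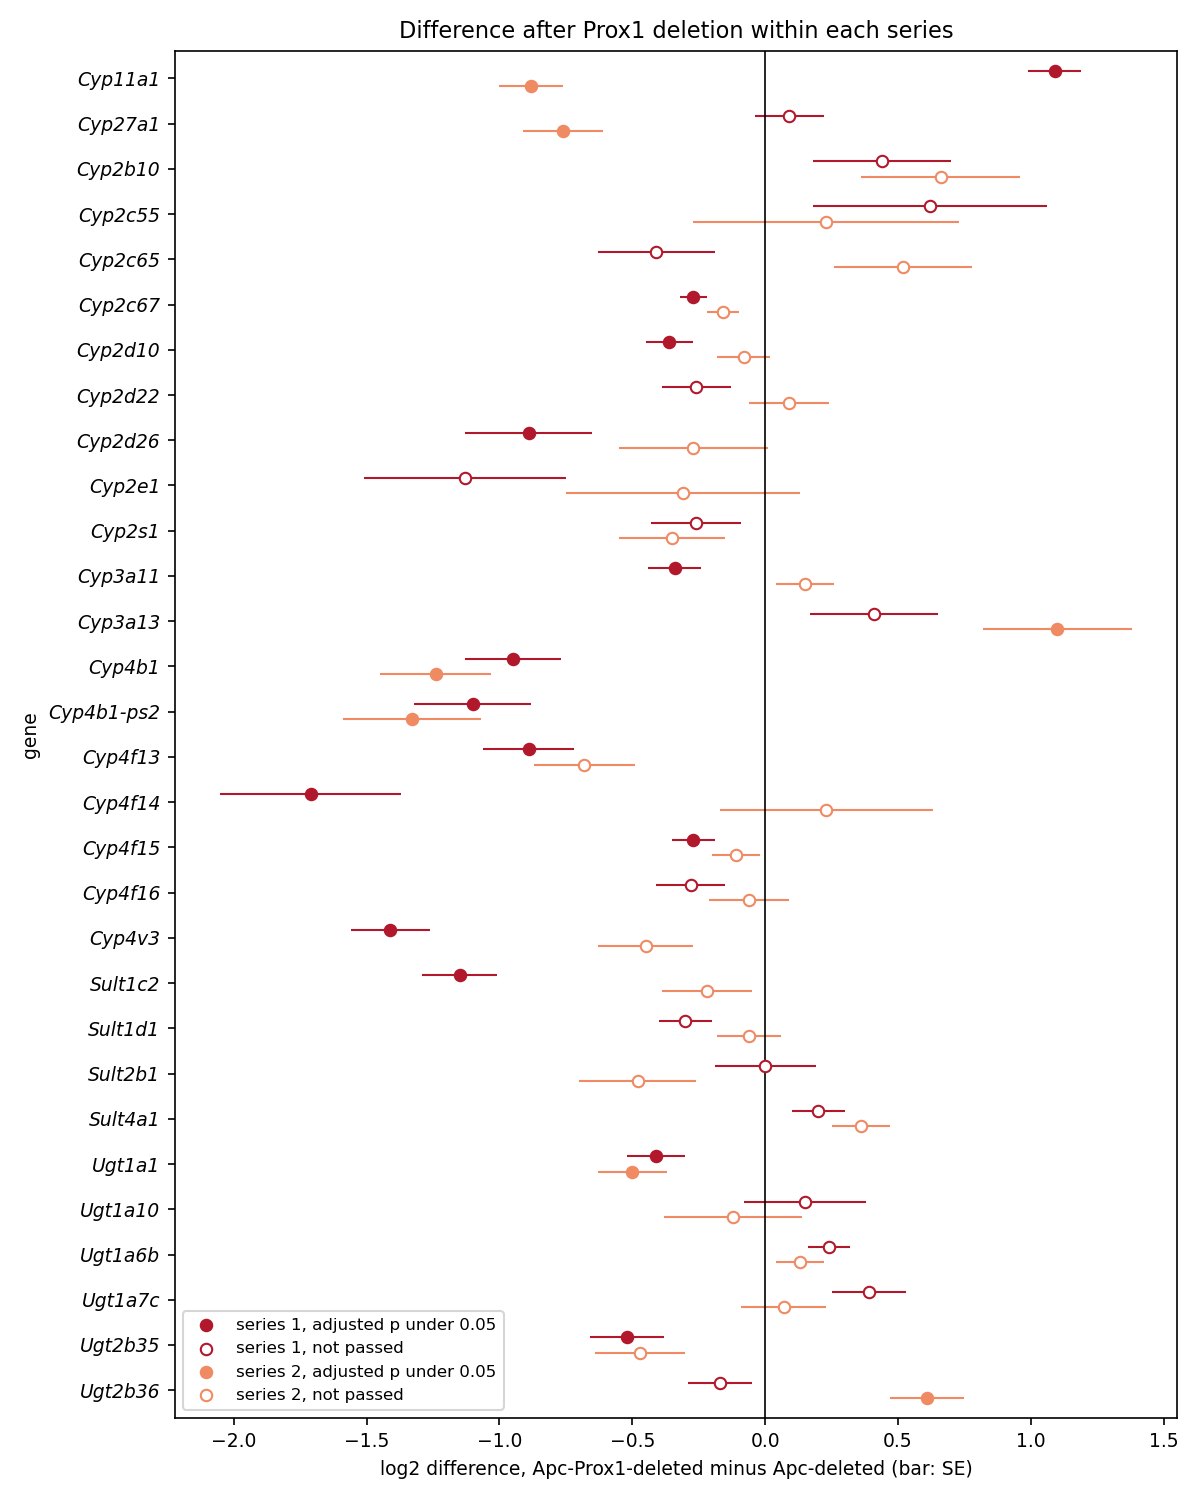
Log2 difference, Apc-Prox1-deleted minus Apc-deleted, of the 30 members that are above the floor or passed in a comparison, with the SE as a bar; red is series 1 and orange series 2, and filled points passed an adjusted p of 0.05. Cyp4b1, Cyp4b1-ps2 and Ugt1a1 are filled and negative in both series, and Cyp11a1 is filled on opposite sides of 0.

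Of 9 tested genes of cofactor and electron supply, 2 were higher and 1 lower in series 1, 1 higher and 1 lower in series 2, and 2 higher and 1 lower over both. Over all genes read the same way, 10.7% passed in series 1, 5.18% in series 2 and 15.8% over both. Papss1, which makes the sulfate donor PAPS, averaged 10.40 in Apc-Prox1-deleted and 11.07 in Apc-deleted organoids of series 1, and 10.53 and 11.39 in series 2, and fell by 0.75 over both (SE 0.13, adjusted p = 0.000807). Slc26a2, a sulfate importer near the floor, rose by 0.22 over both (adjusted p = 0.00111), and Alas1, the first enzyme of haem synthesis, by 0.40 (adjusted p = 0.028). Of 23 tested receptors and transcription regulators of these enzymes, 2 were higher and 1 lower in series 1, 1 higher in series 2, and 2 higher and 1 lower over both. Ppard rose by 0.52 and Nfe2l2, the regulator of antioxidant genes, by 0.40 over both series (adjusted p = 0.0128 and 0.037), and the intestinal factor Cdx1 fell by 0.40 (adjusted p = 0.0315). In series 1 the bile acid receptor Nr1h4 fell by 0.63 (adjusted p = 0.00775), and in series 2 the vitamin D receptor Vdr rose by 0.76 (adjusted p = 0.0425). The xenobiotic receptor Nr1i2 differed by 0.06 over both series (SE 0.09, adjusted p = 0.777), and Ahr, Ppara and Nr0b2 were not above the filter level.

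Of 6 tested ABC exporters, 3 were higher in series 1, 2 in series 2 and 4 over both, with none lower and a median difference of 0.60 over both. Over all genes read the same way, 4.72% were higher in series 1, 2.09% in series 2 and 7.11% over both. Lower calls over both took 8.73%. Abcb1b, a drug exporter, averaged 8.42 in Apc-Prox1-deleted and 6.91 in Apc-deleted organoids of series 1, and 7.94 and 7.02 in series 2, and rose by 1.26 over both (SE 0.10, adjusted p = 1.62e-06). Abcc3, Abcc4 and Abcc2, which carry glucuronides and other conjugates, rose by 0.81, 0.75 and 0.46 (adjusted p = 0.000291, 0.000193 and 0.018). Of 12 tested companion enzymes, 3 were higher and 4 lower over both series. Ephx1, the microsomal epoxide hydrolase, rose by 0.98 (adjusted p = 0.000393), Gusb, which splits glucuronides, by 0.72 (adjusted p = 0.00102), and the carboxylesterase Ces2e by 0.45 (adjusted p = 0.00364). The sulfatases Arsa and Arsb fell by 0.53 and 0.70 (adjusted p = 0.009 and 0.000509), the methyltransferase Tpmt by 0.60 (adjusted p = 0.00446) and the carboxylesterase Ces1d by 0.62 (adjusted p = 0.00853).

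Over all genes read the same way, 5.96% were lower in series 1, 3.09% in series 2 and 8.73% over both. Markers of absorptive enterocytes moved in series 1 as well. Of 12 tested, 8 were lower and 0 higher there, 0 passed in series 2, and 4 were lower over both. The mean level of the list in each library ran from 7.47 to 7.60 in the Apc-Prox1-deleted and from 8.07 to 8.35 in the Apc-deleted libraries of series 1, and from 7.23 to 7.70 and from 7.33 to 7.48 in series 2. Sis, the brush border sucrase-isomaltase, averaged 8.70 in Apc-Prox1-deleted and 11.18 in Apc-deleted organoids of series 1, and 8.51 and 8.66 in series 2, and its difference between the series passed (-2.33, adjusted p = 0.00147). Apoa1 and Apoa4 each fell by 1.65 in series 1 (adjusted p = 0.00599 and 0.00414), while Fabp1 and Fabp2 were not above the filter level. In bulk RNA fewer cells of a type and less RNA per cell cannot be told apart. Of 9 enteroendocrine markers tested, 8 were lower in series 1, 2 in series 2 and 6 over both, with none higher. Their mean level ran from 7.33 to 7.65 in the Apc-Prox1-deleted and from 8.15 to 8.49 in the Apc-deleted libraries of series 1, and from 7.50 to 7.75 and from 7.82 to 8.06 in series 2.

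Some markers of crypt cells fell in both series. Of 7 stem cell markers tested, 2 were lower in each series and 4 over both (Lgr5, Ascl2, Rgmb and Axin2), with none higher. Their mean level ran from 9.07 to 9.13 in the Apc-Prox1-deleted and from 9.48 to 9.74 in the Apc-deleted libraries of series 1, and from 8.74 to 9.04 and from 9.23 to 9.39 in series 2. Rgmb fell by 0.95 in series 1 and by 0.91 in series 2 (adjusted p = 0.000802 and 0.00723). Of 7 Paneth cell markers tested, 3 were lower in series 1, 1 in series 2 and 2 over both, with none higher. Their mean level ran from 10.68 to 11.02 in the Apc-Prox1-deleted and from 11.21 to 11.58 in the Apc-deleted libraries of series 1, and from 11.06 to 11.08 and from 11.43 to 11.64 in series 2. The defensin Defa26 fell by 1.37 in series 1 and by 0.99 in series 2 (adjusted p = 6.57e-06 and 0.00139). Of 6 goblet cell markers tested, Muc2 and Zg16 fell in series 1 (by 0.83 and 1.19, adjusted p = 0.00332 and 0.0016) and none passed in series 2, and of 3 tuft cell markers Alox5 rose in series 1 (by 0.27, adjusted p = 0.00237). The part of these cell type markers in the members' differences was not tested. Of the hepatocyte markers, Alb, Tat and Apoh were not above the filter level, and 1 of 3 tested, Ttr, fell in series 1, by 0.96 (adjusted p = 3.02e-05).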

How the data were processed

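RNA of 14 entries was hybridised to Illumina bead arrays, and the authors deposited 45281 probes as ratio values. From the values, this ratio was read as a log2 level over the probe's median in its series. Background correction and normalization by the authors are not stated in the labels or headers. Log2 levels were recovered by a search for that divisor (6.0 to 16.0), which left out 33 probes. The log base was inferred from their range of 6.35 to 15.23, and the divisor was unique for 5801 probes. A further table with 28 columns of values was not used, since its column names match no label. Levels were quantile normalized over all entries, and copies were found as pairs that differed by at most 0.02 log2. Probes above the 50th percentile of the array on at least 3 of 10 libraries (26342) were fitted with limma 3.58.1 in R 4.3.3 (lmFit, eBayes with trend). The within-series contrasts came from 4 group means (6 residual degrees of freedom) and the value over both series from series and genotype terms (7). Benjamini-Hochberg adjustment ran over all tested probes, with a threshold of 0.05. The steps were tested on simulated data. Probe symbols come from GEO's platform annotation (34861 probes with 1 symbol, 18 with several, 10369 with none), and gene order from RefSeq's annotation of mouse GRCm38.p6. The text names each member whose brightest probe passed and a selection of the other members. It also names genes of lists drawn up for cofactors, receptors, exporters, companion enzymes and cell types. Members, lists and tests were chosen with earlier results of these data known. Alternatives changed the normalization, unit, filter, entries, variance prior, array weights, replicate block, probe rule and libraries. Replicate numbers were not taken to pair libraries, since the correlations of their deviations were -0.03 and 0.19 in series 1 and 0.09 and 0.09 in series 2. The number of arrays limits the precision.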

Additional observations from a re-analysis of the deposited data

Results flagged for a closer look

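The level of Cyp2d26 was flagged in the 4 Apc-deleted libraries of series 1, because replicate 2, at 7.72, lay far below the others, at 8.34 to 8.45. The gap was 0.85 of the whole range, above Dixon's critical value for 4 libraries. Chance flags about 1 in 20 such groups, and 30 were examined. The difference between the series of Cyp11a1 was flagged because the genotype effect differed between series 1 and series 2 by 1.97 log2 (limma adjusted p = 8.85e-07). Both Apc-Prox1-deleted libraries were higher in series 1 and both were lower in series 2.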

How the results depend on the processing

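The calls of members depended on single libraries, since 3 of the 4 groups held 2. In series 1 the count of 14 members ran from 4 to 15 when 1 library was left out, with 4 without Apc-Prox1-deleted replicate 2 and 6 without replicate 1. In series 2 the count of 7 ran from 2 to 8, with 2 without Apc-deleted replicate 1 and 3 without Apc-Prox1-deleted replicate 1. Over both series the count of 14 ran from 8 to 14, with 8 without Apc-Prox1-deleted replicate 1 of series 1, and the count that differed between the series ran from 1 to 4, with 4 without Apc-Prox1-deleted replicate 1 of series 2 and 2 without Apc-deleted replicate 3 of series 1. In series 2, 4 members passed with quantile normalization within each series, 4 with cyclic loess, 4 with no further normalization and 4 with each series fitted alone, and 1 passed on the deposited ratios and 1 with all 14 entries as labelled. Over both series 9 passed on the ratios. The difference between the series passed for 3 members (Cyp11a1, Cyp4v3 and Sult1c2) with quantile normalization within each series, 3 with cyclic loess and 3 with no further normalization, and for 0 with a level exceeded on all libraries, a filter that leaves 24 members and drops Cyp11a1. With the replicate number as a block, a pairing that the labels do not state, 13 members passed in series 1, 8 in series 2 and 13 over both, and 4 differed between the series (Cyp11a1, Cyp4f14, Sult1c2 and Ugt2b36). With the block, Cyp2c55 passed in series 1 (1.34, adjusted p = 0.0109) and Cyp2b10 in series 1 (0.87, adjusted p = 0.0135) and over both (0.77, adjusted p = 0.00738). Over all probes, series 1 had 2191 calls, against 2982 with normalization within each series and 4610 with array weights. Series 2 had 1085, against 390 with normalization within each series, 372 with cyclic loess, 393 with no further normalization, 360 on the ratios, 568 fitted alone and 184 with all entries. Both series together had 3353, against 5096 with array weights and 1996 with the block, and the difference between the series had 148, against 229 with the block, 64 with the strictest filter, 59 on the ratios and 53 with all entries. Of 764 values of the 36 member calls under the alternatives, 622 passed, 142 missed the threshold and 0 reversed. The cause of these shifts was not tested. Levels near the array median of 6.79 compress differences, and detection p-values were not used here.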
